A study of Homo sapiens with 9 samples.

Results

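The alkaline phosphatase genes of germ-cell tumours are 4 of the 63856 genes in the expression tables of TCam-2, a human testicular seminoma cell line. They are ALPL, ALPP, ALPPL2 and ALPI, chosen by gene symbol with earlier results of these data known. The samples formed 3 groups of 3. The wild type (WT) was TCam-2 without modification. For ESX1 activation, cells were co-transfected with a doxycycline-inducible dCas9-VPR activator and vectors with GFP and gRNAs for the ESX1 promoter. The negative control (NC) received the same gRNA vector with gRNAs that match no human sequence, and the sources do not say whether it also received the activator. Transfected cells were kept under puromycin and doxycycline and harvested at 72 h, and after selection most cells still lacked GFP. A difference from WT alone therefore holds the transfection and selection as well as the gRNA target, while NC shares the gRNA vector and the selection. TCam-2 is a single cell line, so the replicates are cultures of 1 line.

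Alkaline phosphatases are zinc and magnesium enzymes held on the outside of the cell membrane by a glycosylphosphatidylinositol (GPI) anchor, where they remove phosphate groups from their substrates. ALPL, the tissue-nonspecific enzyme of bone, liver and kidney, cleaves inorganic pyrophosphate and pyridoxal phosphate, and its activity has long been used to stain primordial germ cells. ALPP (placental), ALPPL2 (germ-cell or placental-like, also named ALPG) and ALPI (intestinal) form a cluster of close paralogs, and the placental and germ-cell enzymes are classical immunostaining markers of seminoma and its precursor lesion.

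In these cells ALPL was by far the most abundant of the 4 transcripts, and ALPI was at or near 0. ALPL was lower in each of the 3 ESX1-activated samples than in each of the 6 control samples, at about 0.69 times the control mean. Of all 18452 tested genes, 7.21% had the activated samples below all controls. The fall in ALPL was less than 2-fold, and its edgeR adjusted p against NC rose above 0.05 when some single samples were left out. ALPPL2 was lower after activation than in WT, but its difference from NC was within the spread between samples. ALPP, with at most 14 counts in a sample, did not pass the filter on low counts, and its groups overlapped.

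Total counts per sample ranged from 5212804 to 10644408, and ESX1-activated replicate 3 was the shallowest sample. ESX1 itself, the targeted gene, had 27 to 35 counts in each of the 6 controls. It had 562 and 554 counts in ESX1-activated replicates 1 and 2, and 170 in replicate 3. In normalized CPM (counts scaled to 1000000 per library with TMM factors), these were 56.98, 55.73 and 31.4. The 6 controls had 2.894 to 4.081. Replicate 3 was thus the lowest activated sample after scaling for depth as well. All 10 seminoma markers on the list (among them POU5F1, NANOG, TFAP2C, SOX17 and KIT) had at least 10 counts in every sample, as the label of a seminoma line calls for. Their summed level, in normalized CPM, was 3885 to 4722 in WT, 2851 to 3033 in NC and 1575 to 1914 in the ESX1-activated samples. SOX17 did not follow this sum, with means of 227.4 in WT, 250.9 in NC and 245.3 after activation.

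The 3 placental-type genes lie within 100 kb on the plus strand of chromosome 2 (GRCh38), with ECEL1P2 between ALPP and ALPPL2, and ECEL1P1, AC068134.6 and DIS3L2P1 between ALPPL2 and ALPI. ALPP (ENSG00000163283.6) spans chr2:232378534-232382889, ALPPL2 (ENSG00000163286.8) chr2:232406843-232410714 and ALPI (ENSG00000163295.4) chr2:232456123-232460032. ALPL (ENSG00000162551.13) lies on the plus strand of chromosome 1, at chr1:21509372-21578412. Of the exon bases of ALPP, 20.63% also lie in an exon of AC068134.8 on the other strand, and that gene had 0 counts. The exons of ALPL, ALPPL2 and ALPI overlap no exon of another listed gene.

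How far the reads could separate these paralogs was read from GENCODE transcripts. The coding sequence of ALPP (1608 bases) and that of ALPPL2 (1599 bases) were identical in 97.26% of aligned positions, with 35 mismatches and 9 positions in a gap. ALPI was identical to ALPP in 88.56% and to ALPPL2 in 88.81%, and ALPL to the 3 others in only 62.35 to 62.85%. The longest run without a difference between ALPP and ALPPL2 was 339 bases. Its first 150 bases, the length of 1 read, are shown because a read from this stretch has no base that tells the genes apart (bases 957 to 1106 of the ALPP coding sequence).
ALPP and ALPPL2: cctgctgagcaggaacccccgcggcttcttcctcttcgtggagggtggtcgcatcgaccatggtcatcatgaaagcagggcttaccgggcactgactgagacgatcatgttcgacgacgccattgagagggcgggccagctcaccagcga

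Across the whole transcripts, 7.64% of the 150-base windows of ALPP and 8.49% of those of ALPPL2 also occurred in another member. At 300 bases, the combined length of both reads of a pair, the shares were 1.63% and 1.82%. For ALPL the share was 0.0% at every length tested. A read pair that matches both genes equally well was not counted under the settings in the file header, so the counts of ALPP and ALPPL2 are taken from the remaining positions. Such pairs are missing from the split between these 2 genes and from their sum alike. Misassignment of the counted pairs, which would affect the split and not the sum, was not measured.

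**Figure D1:**
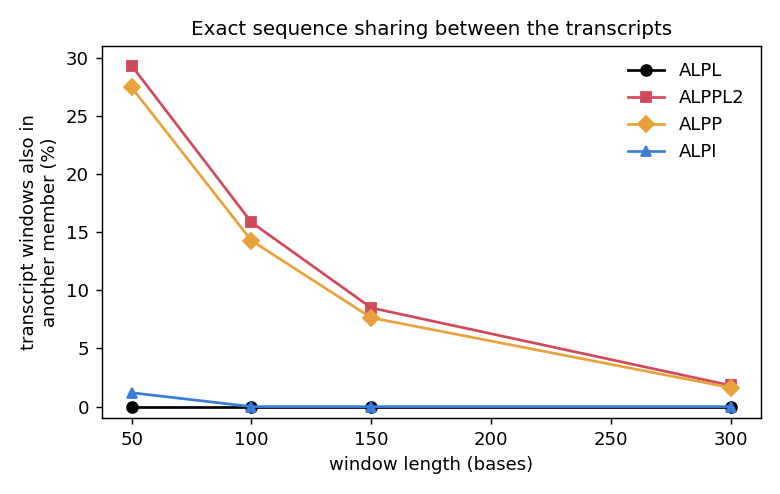
Share of transcript windows (%) whose exact sequence also occurs in a transcript of another member, against window length in bases, 1 line per gene. ALPP and ALPPL2 fall from 27.43% and 29.31% at 50 bases to 1.63% and 1.82% at 300 bases, while ALPL stays at 0.0%.

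Upstream of the start sites (RefSeq, GRCh38.p14; windows from 250 bases before to 50 after the start), the placental-type genes resembled each other, and not ALPL, in the motif TTTAAA. All 4 genes were found in the promoter table, ALPPL2 under the name ALPG. TTTAAA (both strands searched) occurred once in each placental-type window, 30 bases before the start of ALPP and ALPPL2 and 28 bases before that of ALPI. This motif was in 12.2% of all 35116 promoter windows. The ALPL window nearest the start of the table's gene model had no TTTAAA and 4 copies of GGGCGG, a GC box (both strands searched), which was in 45.0% of all windows. ALPPL2 and ALPI had 1 copy each and ALPP had 0. That window had 82.3% G and C and 42 CpG dinucleotides, more than 94.2% of windows, against 6 CpG for ALPP and ALPPL2 and 7 for ALPI. ALPL has other start sites in that table, neither of them with either motif. Their windows had 59.7% and 50.3% G and C and 11 and 9 CpG, near the placental-type windows (59.7 to 62.3% G and C). The ALPL stretch shown is taken around GGGCGG, further from the start, so it is not aligned with the others. The 30 bases around these motifs are shown to let the resemblance of the placental-type genes be seen, with the motif in capitals. They are the plus strand of chr2:232378709-232378738 (ALPP), chr2:232406802-232406831 (ALPPL2), chr2:232456113-232456142 (ALPI) and chr1:21509336-21509365 (ALPL).
ALPP: agttctccctgaTTTAAAcccgggcagcct
ALPPL2: agttttccctgaTTTAAAcccaggcagcct
ALPI: gtcctcccctgaTTTAAAcccaggcagcct
ALPL: ggccggGGGCGGgggaggGGGCGGgctgcc

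The levels of the 4 genes were compared per kilobase of exon, since the gene models differ in length. In WT, the level was 67.4 ± 11.5 normalized CPM per kilobase for ALPL (SD, n = 3). It was 1.36 ± 0.765 for ALPPL2, 0.324 ± 0.207 for ALPP and 0.0 for ALPI. ALPL thus stood 49.6-fold above ALPPL2 and 208-fold above ALPP in WT. In NC these ratios of levels were 114 and 249, and in the ESX1-activated cells 117 and 378. The order ALPL, ALPPL2, ALPP held in each of the 9 samples. ALPL did not overlap with any other member in any group. ALPPL2 and ALPP did not overlap in WT or in the ESX1-activated cells, where ALPPL2 was 4.2-fold and 3.23-fold higher. In NC their ranges overlapped.

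Among the 40330 genes with any count, ALPL ranked 424 by mean level per kilobase, above 98.9% of them. ALPPL2 was above 53.5%, ALPP above 35.3% and ALPI above 2.36%.

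**Figure D2:**
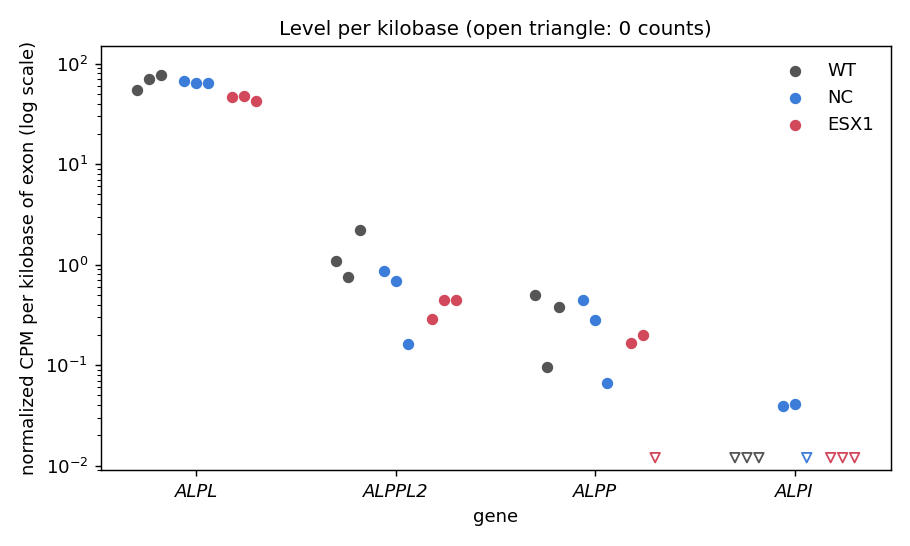
Level of each gene in each sample, in normalized CPM per kilobase of exon on a log axis, with the groups in colour and samples with 0 counts as open triangles at the bottom. ALPL sits far above the placental-type genes in all 9 samples, and ALPI has counts in 2 NC samples only.

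ALPL, the tissue-nonspecific enzyme, was measured with 687 to 2209 counts per sample. In WT its level was 164.0, 213.0 and 230.7 normalized CPM. In NC it was 204.3, 192.1 and 192.3. In the ESX1-activated samples it was 140.8, 144.8 and 126.9. All 3 activated samples were below all 6 controls, while WT and NC overlapped. Among all 18452 tested genes, 7.21% had the activated samples below all controls. The means were 202.6 ± 34.6 in WT, 196.2 ± 7.01 in NC and 137.5 ± 9.38 in the activated cells (SD, n = 3 each). The activated cells against the 6 controls gave an exact permutation p of 0.0119 (two-sided), which is the smallest that 84 splits allow.

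In the edgeR quasi-likelihood fit over all tested genes, ALPL fell by 0.56 on the log2 scale in the activated cells against WT (SE 0.13, adjusted p = 0.00303). Against NC it fell by 0.51 (SE 0.13, adjusted p = 0.026). Both 95% intervals, -0.82 to -0.29 and -0.78 to -0.25, stayed above a 2-fold fall. The call used here was an adjusted p below 0.05 together with an estimated change of at least 2-fold. ALPL did not meet it, since both estimates were less than 2-fold. By adjusted p alone, 28.8% of tested genes differed from WT (15.8% lower) and 4.25% from NC (2.37% lower). NC and WT differed by -0.05 (95% interval -0.31 to 0.22, edgeR adjusted p = 0.835). The adjusted p against NC rose above 0.05 when NC replicate 1, 2 or 3 (0.108, 0.0871 and 0.106) or ESX1-activated replicate 3 (0.12) was left out, with the difference between -0.55 and -0.45 over all single omissions. The summed level of the seminoma markers given above was lower in the same samples, and also lower in NC than in WT, where ALPL did not differ. Among those markers, SOX17 (0.11 against WT, -0.03 against NC) and TFAP2A (0.41 and -0.19) did not differ by edgeR adjusted p. The other listed markers were lower than in WT by adjusted p. The part of these markers in the ALPL difference was not tested. In such bulk samples, fewer cells with a transcript and less of it per cell cannot be told apart.

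ALPPL2, the germ-cell enzyme, had 4 to 53 counts per sample. Its counts were 25, 13 and 53 in WT, 21, 16 and 4 in NC, and 7, 11 and 6 in the ESX1-activated cells. In normalized CPM these were 2.73, 1.895 and 5.536 in WT, 2.177, 1.715 and 0.4071 in NC, and 0.7097, 1.107 and 1.108 after activation. All 3 activated samples were below all 3 WT samples, and within the range of NC. WT replicate 3 was the highest sample and NC replicate 3 the lowest.

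Against WT, ALPPL2 was downregulated by 1.82 on the log2 scale after activation (SE 0.56, 95% interval -3.01 to -0.64, edgeR adjusted p = 0.0217). It was the only one of the 2 tested members that passed the call in this comparison, in which 11.5% of all tested genes passed, 4.77% as lower and 6.78% as higher. The call was lost without WT replicate 3 (-1.27, adjusted p = 0.154), without ESX1-activated replicate 1 (-1.62, 0.0733) and without ESX1-activated replicate 3 (-1.88, 0.0535), each by edgeR. With limma on the authors' log2 values, which compress low counts, the difference was -0.72, less than 2-fold. An exact permutation test of 3 samples against 3 cannot go below 0.1, which was its p here.

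Against NC, ALPPL2 differed by -0.57 (SE 0.60, 95% interval -1.82 to 0.69, edgeR adjusted p = 0.718), an interval that holds both no change and a fall of more than 2-fold. NC itself was 1.26 below WT on the log2 scale (SE 0.52, edgeR adjusted p = 0.11), which did not pass. With edgeR, 0 of the 2 tested members passed the call against NC, beside 1.78% of all tested genes (0.699% lower and 1.08% higher), and 0 passed between NC and WT, beside 5.27% (2.15% lower and 3.12% higher). At an unadjusted p below 0.05, 1 member passed in each (ALPL against NC, and ALPPL2 between NC and WT), as did 16.0% and 31.1% of all tested genes. DESeq2 and limma also gave 0 calls in both. The 2 comparisons of the activated cells share the activated samples, and those with WT share the WT samples.

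ALPP, the placental enzyme, had 14, 2 and 11 counts in WT, 13, 8 and 2 in NC, and 5, 6 and 0 in the ESX1-activated cells. The groups overlapped. Its mean level was 0.99 ± 0.634 normalized CPM in WT, 0.803 ± 0.574 in NC and 0.37 ± 0.324 after activation (SD, n = 3 each). Summed over a group there were 27 counts in WT (exact 95% Poisson interval 17.8 to 39.3), 23 in NC (14.6 to 34.5) and 11 in the activated cells (5.49 to 19.7), and these intervals cover counting error only. They overlap between the activated cells and each control. ALPP did not pass the filter on low counts, so it has no value in the fit used for the other genes. When the filter was dropped, edgeR gave -1.26 on the log2 scale against WT (adjusted p = 0.352), -0.94 against NC (adjusted p = 0.764) and -0.32 for NC against WT (adjusted p = 0.885). DESeq2 gave -1.32 against WT (adjusted p = 0.393). The exact permutation p against the 6 controls was 0.19 (two-sided), so a difference was not detectable at this depth.

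ALPI, the intestinal enzyme, had 0 counts in all WT and all activated samples and 1 count each in NC replicates 1 and 2. A count of 0 allows up to 0.108 CPM over the WT group and 0.12 CPM over the activated group (3 counts in the summed total). The 2 NC counts correspond to 0.0734 CPM, which is below both limits. No fold change was therefore computed.

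**Figure D3:**
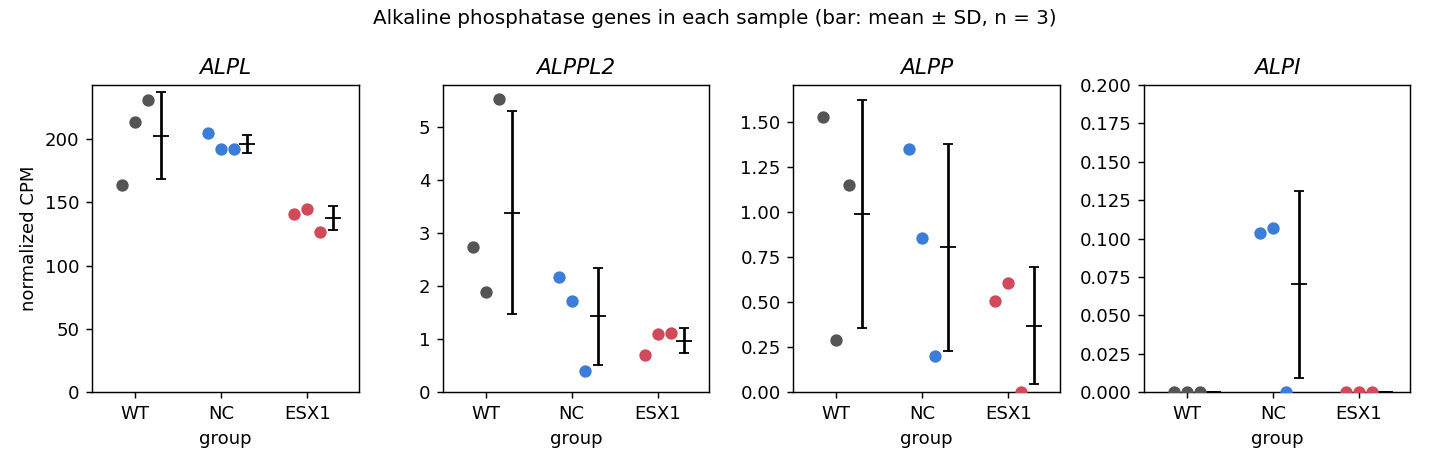
Normalized CPM of each gene in each sample, 1 panel per gene with its own axis from 0, and the group mean ± SD (n = 3) as a bar beside the points. The ESX1-activated samples lie below all controls for ALPL, below WT and within NC for ALPPL2, and overlap with both controls for ALPP.

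Because the paralogs share sequence, the 3 placental-type genes were also summed into 1 row. The sum was 39, 15 and 64 counts in WT, 35, 25 and 6 in NC, and 12, 17 and 6 in the activated cells. In the same fit this row was lower by 1.69 on the log2 scale against WT (SE 0.53, edgeR adjusted p = 0.0242). Against NC it differed by -0.74 (95% interval -1.90 to 0.42, edgeR adjusted p = 0.574), and NC against WT by -0.94 (95% interval -1.98 to 0.09, edgeR adjusted p = 0.202). The sum thus gave the same calls as ALPPL2 alone, which supplied 91 of its 118 counts in WT, 41 of 66 in NC and 24 of 35 after activation. The sum is therefore not a separate result, and it was not refitted with single samples left out. Read assignment between the paralogs does not enter the sum, except for pairs left uncounted.

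**Figure D4:**
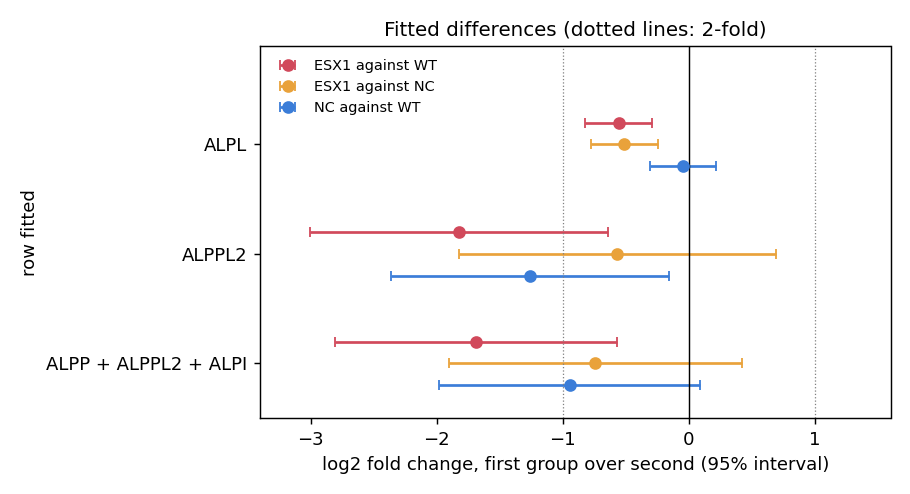
Fitted log2 fold changes with 95% intervals for ALPL, ALPPL2 and the summed placental-type genes in the 3 comparisons. The ALPL intervals are narrow and stay between 0 and a 2-fold fall for the activated cells against either control, while the placental-type intervals against NC cross 0.

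The share of ALPP among the placental-type counts was 35.9%, 13.3% and 17.2% in WT. It was 37.1%, 32.0% and 33.3% in NC, and 41.7%, 35.3% and 0.0% in the activated samples. Each share rests on few counts, so that the exact (Clopper-Pearson) 95% interval of NC replicate 3, with 2 of 6 counts, ran from 4.33% to 77.7%. The activated sample with 0 of 6 counts allowed up to 45.9%. Activated cells and controls did not differ beyond this spread (25.7% against 28.2%, exact permutation p = 0.786, two-sided).

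ALPL exceeded the summed placental-type level per kilobase by a ratio of 34.2, 82.8 and 29.6 in WT. The ratio was 50.2, 63.3 and 278 in NC, and 104, 75.1 and 94.9 in the activated cells. NC replicate 3, with only 6 placental-type counts, stood far above the others. The ratios overlapped between all groups, and the exact permutation p of the activated cells against the 6 controls was 1.0 (two-sided). Without NC replicate 3 the difference from the remaining controls was 39.3 instead of 1.62 (exact permutation p = 0.0536). Against WT alone the mean ratio was 91.3 against 48.9 (exact permutation p = 0.2, where 0.1 is the smallest possible), and higher by 32.8 to 59.5 when single samples were left out.

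Around the members, tested genes within 100 kb were examined. ECEL1P1, a pseudogene on the minus strand 5104 bases from ALPPL2, had 3.057, 5.393 and 8.148 normalized CPM in WT, 3.421, 2.787 and 2.646 in NC and 1.318, 2.012 and 0.1847 after activation. Like ALPPL2 it was downregulated against WT (-2.10 on the log2 scale, edgeR adjusted p = 0.00328) and not called against NC (-1.19, adjusted p = 0.228). CHRND, a subunit gene of the muscle acetylcholine receptor 65961 bases from ALPI, was upregulated against WT by 2.54 (edgeR adjusted p = 0.0214) from a WT level of 0.215 normalized CPM. It was also upregulated in NC against WT (2.72, edgeR adjusted p = 0.0205, with no adjusted p from DESeq2), with -0.17 between activated cells and NC. RAP1GAP, a GTPase-activating gene 17803 bases from ALPL, was upregulated against WT by 1.24 (edgeR adjusted p = 0.00433) and differed by 0.28 from NC (adjusted p = 0.686). NBPF3, USP48, DIS3L2, AC068134.10, CHRNG, TIGD1 and EIF4E2 passed the call in none of the 3 comparisons. With edgeR, 3 of the 10 tested neighbours passed against WT, beside 11.5% of all tested genes. Between NC and WT 1 passed (0 with DESeq2), beside 5.27%. Against NC, 0 of the 10 tested neighbours passed with edgeR or DESeq2, beside 1.78% of all tested genes, and 2 had an unadjusted p below 0.05, beside 16.0%.

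The genes whose log2 CPM followed ALPL most closely over the 9 samples were MED22 (Pearson r = 0.982), LIG3 (0.978), ABCA4 (0.976), CHD7 (0.974) and ERFE (0.973), out of 18451 genes. For ALPPL2 they were SOAT2 (0.983), CIB2 (0.927), FAM131B (0.926), GLT8D1 (0.926) and RP11-98I9.4 (0.922). ALPL and ALPPL2 had r = 0.524 with each other. These values describe 9 samples of 3 groups that share the group differences and the library depth.

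Genes that make, load or work with the enzyme were read from lists. The median log2 fold change of all tested genes was 0.01 against WT and 0.0004 against NC. By adjusted p alone, 12.9% of all tested genes were higher than in WT and 1.88% higher than in NC, and between NC and WT 17.1% differed, 10.3% lower and 6.82% higher in NC. For the GPI anchor, which fixes the enzymes to the membrane, 29 of 30 genes were tested and 0 passed the call with edgeR or DESeq2 in any comparison, while 10 had an unadjusted p below 0.05 against WT, 5 against NC and 8 between NC and WT, beside 39.7%, 16.0% and 31.1% of all tested genes. Against WT, 5 of them were higher by adjusted p alone (MPPE1, PGAP1, PIGA, PIGG and PIGH), and the median of the list was -0.02. MPPE1, a phosphodiesterase that remodels the anchor, was 0.94 higher than in WT (edgeR adjusted p = 0.00397) and differed by 0.25 from NC (adjusted p = 0.636). MPPE1 and PIGG were also higher in NC than in WT by adjusted p alone (0.69 and 0.48), and DPM1, a dolichol-phosphate mannose synthase subunit, was lower (-0.57). For zinc loading (SLC30A5, SLC30A6 and SLC30A7, transporters that fill the secretory pathway with zinc), 3 of 3 were tested. With edgeR and DESeq2, 0 passed the call (unadjusted p below 0.05 for 2 against WT and 1 in each other comparison), and SLC30A6 was lower than WT by adjusted p alone both after activation (-0.33) and in NC (-0.55).

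Of the genes of vitamin B6, whose phosphate ester is an ALPL substrate, 3 are described here (PDXK, PDXP and PROSC) and 0 passed the call with edgeR or DESeq2, with an unadjusted p below 0.05 for 1 against WT, 1 against NC and 0 between NC and WT. PROSC, a pyridoxal phosphate binding protein, was 0.38 higher than in WT by adjusted p alone (edgeR adjusted p = 0.0493) and 0.47 above NC without passing (adjusted p = 0.0719).

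Among the genes of phosphate and pyrophosphate, 13 of 17 were tested, and against WT 3 passed as higher and 1 as lower, beside 6.78% and 4.77% of all tested genes. The one that fell was ENPP1, the enzyme that makes extracellular pyrophosphate, the substrate of ALPL. ENPP1 had 122.8, 155.7 and 141.4 normalized CPM in WT, 79.09, 77.18 and 83.76 in NC and 52.72, 59.55 and 35.65 after activation. Its groups did not overlap, and NC lay between the others. It was 1.49 lower than in WT (edgeR adjusted p = 2.04e-06) and 0.69 lower than in NC (adjusted p = 0.014), the latter less than 2-fold, and NC was 0.81 lower than WT (adjusted p = 0.00142).

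The 3 that rose were SLC34A2, a sodium-phosphate cotransporter, ANKH, which exports pyrophosphate and its precursor ATP, and SMPD3, a sphingomyelinase needed for bone mineral. SLC34A2 had 0.7288 to 1.866 normalized CPM in the 6 controls and 4.664, 6.338 and 6.096 after activation. Of all tested genes, 6.39% had the activated samples above all 6 controls. It was the only gene of this list that passed against NC as well (2.03 against WT, 1.73 against NC, edgeR adjusted p = 0.00058 and 0.00837). ANKH was 1.15 higher than in WT (edgeR adjusted p = 0.000326) and 0.63 above NC without passing (adjusted p = 0.0762). SMPD3 was 1.66 higher than in WT (edgeR adjusted p = 0.00906) and 0.82 above NC without passing (adjusted p = 0.342). XPR1, the phosphate exporter, was higher by adjusted p alone against both controls (0.67 and 0.88), less than 2-fold.

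Of the other mineralisation genes, 5 of 10 were tested. As higher, 2 passed the call against WT, 1 against NC and 1 between NC and WT, and 0 passed as lower. Of all tested genes, 6.78%, 1.08% and 3.12% passed as higher in these comparisons. SPP1 (osteopontin), a secreted phosphoprotein of bone and many other tissues, had 40.4, 11.81 and 3.865 normalized CPM in WT, 45.5, 46.63 and 46.41 in NC and 296.4, 206.6 and 213.4 after activation. It was upregulated against WT by 3.67 and against NC by 2.37 (edgeR adjusted p = 1.49e-05 and 0.00292). The authors had already reported SPP1 as upregulated, and the lists were chosen with earlier results of these data known. COL1A1, the main bone and fibroblast collagen chain, was upregulated against WT by 2.27 (edgeR adjusted p = 0.000236) but differed by 0.07 from NC, since NC was itself 2.20 above WT (adjusted p = 0.000708). FAM20C, a kinase of secreted phosphoproteins, was lower than in WT by adjusted p alone (-0.85) and differed by -0.37 from NC (adjusted p = 0.308).

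**Figure D5:**
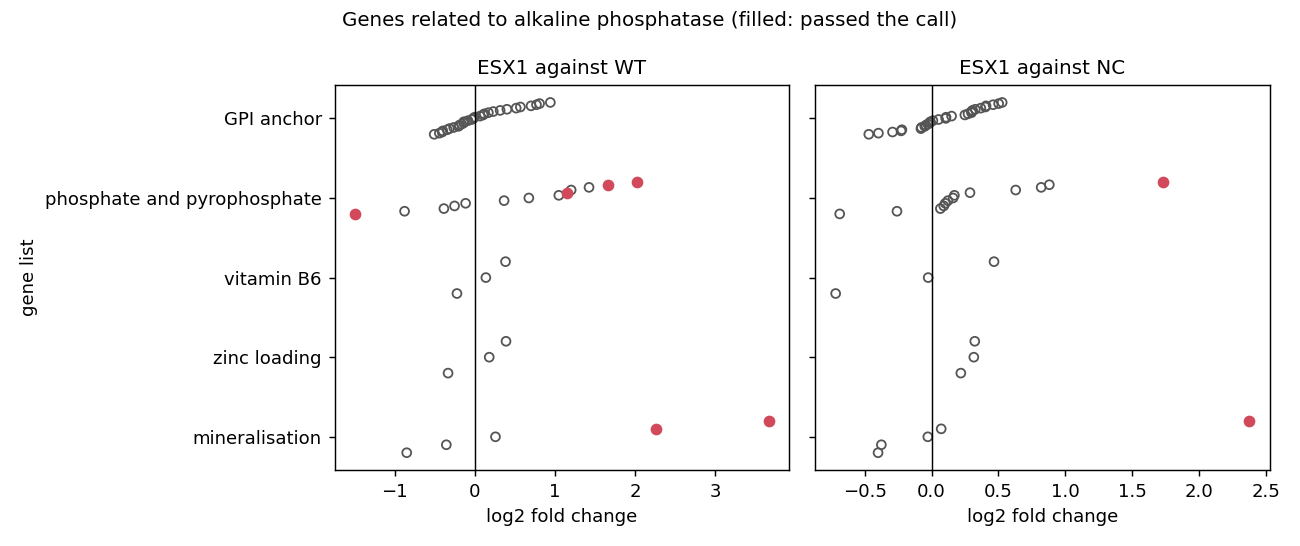
Log2 fold change of each tested gene on the 5 lists for the activated cells against WT (left) and against NC (right), 1 point per gene, filled where the call was passed. Against WT 6 points are filled, and against NC only SLC34A2 and SPP1, beside calls for 11.5% and 1.78% of all tested genes.

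Marker lists of other tissues were read in the same samples. Trophoblast markers summed to 14.1 to 17.9 normalized CPM in WT, 9.97 to 11.6 in NC and 5.48 to 7.55 after activation, with 2 of 10 at 10 counts or more in every sample and CSH1 at 0 counts. Most of this sum was ERVW-1 and ERVFRD-1, and the other listed markers had 0 to 7 counts per sample. ERVW-1 had means of 11.68 in WT, 4.964 in NC and 2.545 after activation, and ERVFRD-1 had 4.249, 4.3 and 3.323. PSG1 (0.182, 0.522 and 0.393) and HLA-G (0.085, 0.317 and 0.296) had their lowest means in WT. Mean ALPPL2 and ALPP levels fell from WT to NC to the activated samples, but only ALPPL2 against WT passed the call. The part of these markers in the levels of ALPPL2 and ALPP was not tested. Intestinal markers summed to 2.18 to 5.22 in WT, 3.32 to 4.25 in NC and 4.26 to 6.47 after activation. Of these markers, 0 of 6 had 10 counts or more in every sample, and SI had 0 counts. Bone and fibroblast markers summed to 182 to 337, 133 to 170 and 109 to 227, with 2 of 6 at that count. Most of this sum was COL1A2, a collagen chain, with 172.7, 226.2 and 333.7 normalized CPM in WT, 148.5, 116 and 129.3 in NC and 196, 102.3 and 93.84 after activation. COL1A2 was lower than WT by adjusted p alone (-0.90, edgeR adjusted p = 0.01) and so was NC (-0.90, adjusted p = 0.0163), with -0.002 between activated cells and NC, while COL1A1 was higher than WT in both. DCN, LUM, SP7 and BGLAP had 0 to 31 counts per sample. The part of these collagen genes in the ALPL difference was not tested. Somatic testis markers summed to 8.45 to 14.6, 11.1 to 17.4 and 7.95 to 22.0, with INSL3 at 0 counts. Embryonal carcinoma markers summed to 74.5 to 86.7, 63.4 to 73.1 and 55.8 to 67.2, and most of this was DNMT3B (means 74.84, 59.13 and 52.94). SOX2 went the other way, with means of 4.244 in WT, 9.84 in NC and 7.861 after activation. SOX2 was 1.23 higher in NC than in WT (edgeR adjusted p = 0.0222). After activation it was 0.88 higher than in WT without passing (edgeR adjusted p = 0.0751).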

How the data were processed

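RNA of TCam-2 cells was sequenced as read pairs from ribosome-depleted, stranded libraries, with 3 biological replicates per group. The authors aligned reads to GRCh38 with HISAT2 2.0.5 and counted pairs per gene with featureCounts (1.6.5 in the submitters' notes, 1.5.2 in the file header), without using strand and without multi-mapping reads. The deposited counts were not normalized. The authors also deposited log2 values, normalized with DESeq2, used here only as an alternative.

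The 18452 genes kept by filterByExpr were fitted in edgeR 4.0.16 (R 4.3.3; TMM, glmQLFit and glmQLFTest, all 9 samples) with Benjamini-Hochberg adjustment over all of these genes. Tests were checked on simulated data. Exact permutation tests used the values per sample. ALPP and ALPI did not pass the filter and were not tested in this fit. ALPP was tested in alternatives without it. Alternatives used limma 3.58.1, DESeq2 1.42.0, other scalings and filters, a replicate block and the omission of each sample. Named genes are the members, ESX1, list genes that were called or had the 3 smallest adjusted p-values of a comparison (values are given where a result turns on them), tested genes within 100 kb, the 5 genes most correlated with each tested member (log2 CPM, prior count 2) and the markers. The members and lists were chosen with earlier results of these data known. Transcript sequences are GENCODE, promoters RefSeq. A listed gene and a stretch of coding sequence are not reported here.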

Additional observations from a re-analysis of the deposited data

How the results depend on the processing

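ALPL stayed lower than both controls under each alternative that was run, between -0.697 and -0.452 on the log2 scale against WT and between -0.553 and -0.445 against NC, and counted as a call only without a minimum fold (-0.558 and -0.512). Its difference between NC and WT was near 0 and turned with upper-quartile factors (0.0453) and without WT replicate 3 (0.0553), with a range of -0.183 to 0.0553 when single samples were left out. ALPPL2 against WT ranged from -2.1 to -1.27 when single samples were left out. The call was lost in 3 omissions, each of a compared sample (WT replicate 3, ESX1-activated replicates 1 and 3). Omissions of NC samples, which are not compared here, left -1.81 to -1.8. With limma on the authors' log2 values, where low counts are compressed, the difference was -0.721 (limma adjusted p = 0.0276), less than 2-fold. ALPP, as a ratio of group means or a fitted value, lay between -1.97 and -0.438 (WT) or -1.66 and -0.341 (NC), and passed nowhere by itself. At least 10 counts in every sample removes ALPPL2, and ALPI gives no fold under any setting.

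The difference in ALPP share turned sign when single samples were left out, with ranges of -4.49 to 16.3 percentage points against WT, -16.5 to 4.32 against NC and -10.5 to 10.3 against both controls. The difference in the ratio of ALPL to the placental-type level did so against NC (-79.4 to 34.6) and against both controls (-10.4 to 39.3). Of the listed genes, 1 was called between NC and WT, beside 5.27% of all tested genes. The list count was 3 with the replicate block and 2 with no filter beyond 1 count.

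Replicate numbers follow the sample titles, and the library names of some ESX1-activated samples carry other numbers. Deviations of samples with the same title number correlated between -0.030 and 0.193, with 5 of 9 samples closest to their own number. The titles give only a number. Whether samples with the same number were cultured or transfected together cannot be told from these values. The replicate block left ALPPL2 against WT at -1.78 and ALPL at the same side of the call. Depth limits ALPP, ALPI and ALPPL2, whose counts per sample were 0 to 53.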
